A study of Mus musculus with 3530 samples.

Results

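Reporter-free neurons were the cells in which not a single sequenced read of the tdTomato transgene was found. They came from the medial prefrontal cortex of TRAP2;Ai14 mice that went through contextual fear conditioning or a control procedure. Members had a transgene count of 0 and did not come from the pos gate of the sorter, so they were either in the neg gate or had no gate in their labels. Of the 3530 cells of the series, 1205 met these conditions, and 636 of them belonged to the comparison made here, 397 from Fear-Recall and the rest from Context-Only animals. The members were thus selected on a measured value, the transgene count, which is described below and not tested.

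All groups shared the same transgenic background. TRAP2 is an allele in which the Fos locus drives a drug-inducible Cre recombinase, and Ai14 is a reporter allele that turns on tdTomato after Cre has acted, so the red reporter marks cells in which Fos was active while the drug was present. The labels name 4 conditions, Fear-Recall, Context-Only, Fear-Only and Homecage, and give no age, sex, dose or time. A neuron without reporter reads is therefore a neighbour of the marked cells from the same tissue and the same session, although a weakly expressed transgene can also be missed in a library. The comparison asks whether a difference between animals that recalled fear and animals that saw the context alone is measurable outside the marked cells.

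Prefrontal neurons fall into glutamatergic pyramidal cells, which project to other regions, and GABAergic interneurons, which inhibit their neighbours. Interneurons are commonly divided by the peptides and proteins they make. Those with vasoactive intestinal peptide (Vip) mostly inhibit other interneurons, those with somatostatin (Sst) contact pyramidal dendrites, and those with parvalbumin (Pvalb) contact pyramidal cell bodies. Immediate early genes such as Fos, Arc and Egr1 are switched on within minutes of strong activity.

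Each animal was 1 replicate, with the reads of its members summed, and a sum needed at least 10 cells. Fear-Recall had 4 such animals, mice 1, 2, 3 and 5, with members making up 42.3%, 91.7%, 87.2% and 59.1% of the 175, 192, 94 and 110 cells outside the pos gate. Context-Only also had 4, mice 2, 3, 4 and 5, with 62 of 68, 51 of 58 and 51 of 55 cells in mice 2, 3 and 4 and 71.4% of the cells, 75 in number, in mouse 5. Mice 2, 3 and 4 were sorted into a neg gate, whereas Fear-Recall mouse 1 and both mice of number 5 have no gate in the labels, and the share of reporter-free cells was lower there. A second Context-Only mouse of number 5, in which 69.3% of 150 cells were members, was kept apart and is given beside the others. The cells just outside the rule, with exactly 1 reporter read, numbered 2, 4, 2 and 2 in the Fear-Recall mice and 1, 1, 0 and 0 in the Context-Only mice. The cell labels hold a p or T number, read here as the plate, although the labels do not name it so. By this reading each Context-Only animal and Fear-Recall mouse 5 were on 1 plate, so plate and animal cannot be told apart there. Each label prefix with such a number belonged to 1 condition, so plate and condition cannot be told apart either.

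The libraries were deep. A Fear-Recall or Context-Only member carried between 100002 and 2640781 reads, with a median of 717254, and a median of 6805 genes was detected. Genes per member ranged from 527 to 9991. Members with fewer than 3000 genes numbered 0, 3, 1 and 1 in Fear-Recall mice 1, 2, 3 and 5. They numbered 5, 1, 2 and 8 in Context-Only mice 2, 3, 4 and 5. The summed counts per animal ran from 29557391 to 100981046. No 2 cells had identical counts (0 identical cells). Markers of neurons dominated the sums: the excitatory list, which includes the vesicular glutamate transporters, summed to 1666 to 3056 counts scaled to a common library total (CPM) in Fear-Recall and 1578 to 2947 in Context-Only animals, and the microglia list to 27.04 to 35.9 and 20.003 to 85.7 CPM. The astrocyte list summed to 109.1 to 239.8 CPM, with a mean of 168.2, in Fear-Recall and to 206.96 to 313.9 CPM, with a mean of 251.1, in Context-Only animals. Aldoc, a gene of this list, was alone at 85.7 to 183.3 against 177.5 to 196.8 CPM. Without Aldoc the list summed to 23.4 to 92.8 against 22.9 to 122.7 CPM, with overlap. The oligodendrocyte list summed to 39.8 to 190 and 64.2 to 178.9 CPM, the list of its precursors to 0.341 to 6.47 and 0.0775 to 5.20, the endothelial list to 5.99 to 19.02 and 12.9 to 23.96, and the pericyte list to 9.72 to 12.3 and 3.92 to 50.3.

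The level of the interneuron peptide Vip did not overlap between the conditions. In all reporter-free neurons of an animal, Vip was at 812, 1693, 1296 and 580 CPM in Fear-Recall mice 1, 2, 3 and 5. It was at 3614, 5948, 2869 and 6180 CPM in Context-Only mice 2, 3, 4 and 5. Each Fear-Recall mouse lay below each Context-Only mouse, and the second Context-Only mouse, at 6117 CPM, lay with its group. The mean level was 1095 ± 498 CPM against 4653 ± 1660 (SD, n = 4 each), a log2 fold change of -2.08 (SE 0.57). The difference did not pass the test over all genes, with an adjusted p of 0.9999 by edgeR's quasi-likelihood test. DESeq2's Wald test gave Vip an adjusted p of 0.0221, while the other fits by edgeR and limma ranged from 0.906 to 1. A summed level cannot tell fewer Vip cells from less Vip RNA per cell, and both are described further on.

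The start of the gene is shown because the groups of Vip did not overlap in all or in inhibitory reporter-free neurons. Vip lies on chromosome 10 of GRCm38 at 5639218 to 5647617 on the plus strand (GENCODE vM21). The RefSeq promoter window in GRCm38.p6, chr10:5638968-5639267 on the plus strand, runs from 250 bases before to 50 bases after the transcription start. Capitals mark TGACG, the core of the cyclic AMP response element, searched on both strands.
Vip promoter: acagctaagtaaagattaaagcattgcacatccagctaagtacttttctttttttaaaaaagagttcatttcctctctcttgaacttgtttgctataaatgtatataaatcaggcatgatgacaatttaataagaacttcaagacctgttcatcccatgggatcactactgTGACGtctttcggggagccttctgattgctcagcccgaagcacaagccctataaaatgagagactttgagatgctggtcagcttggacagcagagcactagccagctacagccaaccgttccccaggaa
The window held 1 match, and 20.8% of the 32851 promoter windows of the same length held at least 1. Such a share makes the match a description of the letters and no more.

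Across all reporter-free neurons, edgeR called 0 of the 18335 genes it tested at an adjusted p under 0.05 (0% called). By the unadjusted p, 589 genes lay under 0.05, of which 345 were higher in Fear-Recall. limma-trend also called 0 genes, and DESeq2 called 65 (0.355% of those tested), 51 higher and 14 lower. Of these 65, 1 reached a mean log2 CPM of 5, and that gene was Vip. The Fear-Recall animals were all above the Context-Only animals for 250 genes (1.36%) and all below them for 161 (0.878%).

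**Figure D1:**
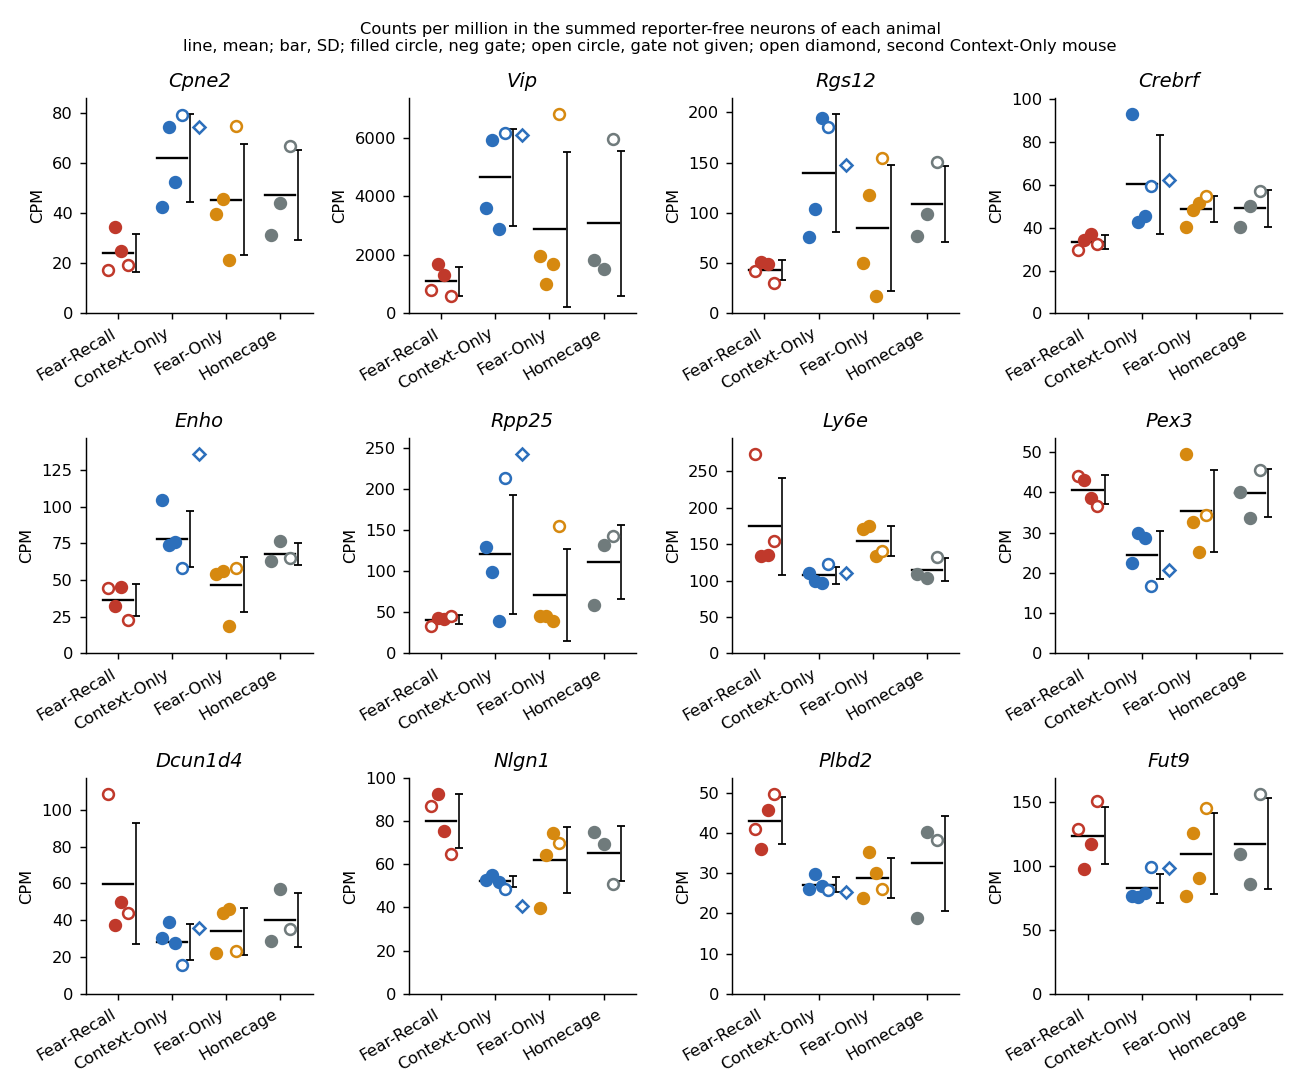
CPM (linear axis) of 12 genes in the summed reporter-free neurons of each animal, with the mean as a line and the SD as a bar for the 4 conditions. Vip lay between 580 and 1693 CPM in Fear-Recall and between 2869 and 6180 CPM in Context-Only animals.

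None of the genes named in this paragraph and the next passed the edgeR test, and they are those of smallest p at a mean log2 CPM of at least 5. Such a choice favours groups without overlap, which 1.36% of all genes tested showed on the higher and 0.878% on the lower side. On the lower side beside Vip was Cpne2, with the smaller p of the pair, a calcium-dependent membrane-binding copine, at 17.4, 34.5, 25.1 and 19.5 CPM against 42.7, 74.7, 52.4 and 79.3 (log2 fold change -1.36, SE 0.37, adjusted p = 0.9999). Rgs12, a regulator that ends G protein signals, stood at 42.0, 51.3, 49.1 and 29.8 CPM against 75.7, 103.6, 194 and 185. Neither gene's groups overlapped. Enho, which encodes the secreted peptide adropin, was at 36.2 ± 10.8 against 78.3 ± 19.1 CPM (SD, n = 4 each), again without overlap. Crebrf, a regulator of a CREB3-type transcription factor, was at 33.5 ± 3.15 against 60.3 ± 23.2 CPM, with Context-Only mouse 2 the highest at 93.3. Rpp25, a protein of the RNase P and MRP complexes, was at 41.0 ± 5.62 against 121 ± 72.1 CPM, but Context-Only mouse 4, at 39.9, lay among the Fear-Recall values.

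The genes of smallest p on the higher side had log2 fold changes between 0.60 and 1.11. Nlgn1, a postsynaptic adhesion protein of excitatory synapses, was at 87.3, 92.6, 75.5 and 64.7 CPM in Fear-Recall and at 52.9, 55.2, 51.6 and 48.8 CPM in Context-Only mice. Its log2 fold change was 0.63 (SE 0.23, adjusted p = 0.9999), and the groups did not overlap. Pex3, needed to build peroxisomes, stood at 40.6 ± 3.62 against 24.5 ± 5.999 CPM, and Plbd2, a lysosomal phospholipase-like protein, at 43.1 ± 5.90 against 27.2 ± 1.83 (SD, n = 4 each). Both were without overlap. Ly6e, a membrane-anchored protein of the Ly6 family, was at 273 CPM in Fear-Recall mouse 1 and between 133.5 and 155 in the other Fear-Recall mice, against 96.7 to 122 in Context-Only. Dcun1d4, of the machinery that attaches Nedd8 to cullins, was at 59.9 ± 32.8 against 28.1 ± 9.77 CPM and Fut9, a fucosyltransferase that makes a carbohydrate epitope of neurons, at 123.7 ± 22.2 against 82.6 ± 11.2. The groups of these last 2 genes overlapped. Against Fear-Only and Homecage, the log2 fold changes of Fear-Recall were 0.21 and 0.04 for Pex3 and 0.20 and 0.09 for Fut9. They were 0.39 and 0.31 for Nlgn1, 0.60 and 0.41 for Plbd2, 0.20 and 0.62 for Ly6e and 0.86 and 0.58 for Dcun1d4.

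The conditions outside the comparison put the Vip values into context. In Fear-Only mice 2, 3, 4 and 5, Vip was at 1966, 1015, 1679 and 6827 CPM. In Homecage mice 2, 4 and 5 it was at 1812, 1503 and 5950 CPM. Among the neg-gate animals the Fear-Recall values, 1296 and 1693, thus lay inside the range of Fear-Only and Homecage, and the 3 Context-Only values were the highest. Among the animals of number 5 the order differed: Context-Only, Fear-Only and Homecage lay between 5950 and 6827 CPM and Fear-Recall at 580. The log2 fold change of Fear-Recall was -1.36 against Fear-Only and -1.48 against Homecage, and both share the Fear-Recall animals with the main comparison. With cells of the neg gate alone, 2 Fear-Recall against 3 Context-Only animals, the log2 fold change of Vip was -1.50. With cells of any reporter count it was -1.09.

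Markers of the Vip class were examined as a list, chosen with the Vip result in view and counting Vip itself. Of its 7 genes, 7 were tested, 0 passed the edgeR test, 6 had a log2 fold change below 0 and 1 above, and the median was -1.25 beside -0.01 for all genes tested. Without Vip, 5 of the 6 genes were below 0. Htr3a, an ion-channel serotonin receptor of these interneurons, was at 26.95, 85.7, 48.9 and 131.5 CPM in Fear-Recall and at 149, 292.99, 213 and 425 CPM in Context-Only mice. The groups of Htr3a did not overlap (log2 fold change -1.88, SE 0.62, adjusted p = 0.9999). Tac2, a tachykinin peptide, was at 131.8 ± 87.3 against 533 ± 220.9 CPM (SD, n = 4 each), and Prox1, a transcription factor of the lineage, at 12.3 ± 7.38 against 29.5 ± 13.001. Crh, corticotropin-releasing hormone, was at 54.1 ± 47.8 against 126.7 ± 89.6 CPM, and the neuropeptide Y receptor Npy2r at 5.13 ± 5.90 against 10.6 ± 4.77. Calb2, the calcium buffer calretinin, went the other way, at 78.9 ± 72.1 against 57.2 ± 21.7 CPM. Its sign turned with limma-trend and without Fear-Recall mouse 2. The groups of the last 5 genes overlapped.

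The inhibitory share was lower on average in Fear-Recall, by a margin that did not pass the test. Inhibitory cells made up 17.6%, 21.02%, 21.95% and 18.5% of the members of Fear-Recall mice 1, 2, 3 and 5. The share was 22.6%, 29.4%, 19.6% and 41.3% in Context-Only mice 2, 3, 4 and 5, and 36.5% in the second mouse. The exact 95% interval (Clopper-Pearson, counting error only) was 9.92 to 30.03% for Fear-Recall mouse 5 and 30.1 to 53.3% for Context-Only mouse 5. The intervals overlapped in the other numbers that both conditions share. They were 15.3 to 27.8% against 12.9 to 35.0% in mouse 2 and 13.6 to 32.5% against 17.5 to 43.8% in mouse 3. The means, 19.8 ± 2.07% and 28.2 ± 9.65% (SD, n = 4 each), differed by -8.48 percentage points (exact two-sided permutation test, p = 0.114, where 0.0286 is the smallest p possible). Without Context-Only mouse 5 the difference was -4.12 points, and within the neg gate it was -2.38 points, 21.5 ± 0.66% (n = 2) against 23.9 ± 5.03% (n = 3) (exact permutation p = 0.8, smallest possible 0.2). In mice 2, 3 and 5, the numbers that both conditions share, the Fear-Recall share was the lower of the pair each time, with a mean difference of -10.6 points, a pairing chosen after the shares were seen (exact paired permutation test, p = 0.25, the smallest that 3 pairs can give).

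The makeup of the inhibitory members was described by grouping all cells again without the genes of the 5 interneuron marker lists. This was done after the Vip values were seen, so it carries no test. The class of a cell was called anew from these clusters, so the numbers of inhibitory members differ by 1 cell in Fear-Recall mice 2 and 3 and Context-Only mouse 4 from those behind the shares above. Clusters with Vip among their 10 leading genes held 7 of 13, 21 of 38, 10 of 19 and 4 of 12 inhibitory members of Fear-Recall mice 1, 2, 3 and 5, or 53.8%, 55.3%, 52.6% and 33.3%. In Context-Only mice 2, 3, 4 and 5 they held 10 of 14, 11 of 15, 9 of 11 and 23 of 31, or 71.4%, 73.3%, 81.8% and 74.2%, and 79.5% in the second mouse. The groups did not overlap, but each share rests on few cells: the interval of Fear-Recall mouse 5 ran from 9.93 to 65.1%. Fear-Only animals spread from 28.6 to 75.0% and Homecage animals from 64 to 100%. Over all cells clustered, 100%, 97.3%, 76.5% and 75.6% of the cells of the Vip-led clusters had Vip reads. The cluster at 76.5% had Htr3a as its leading gene and Cnr1, of the Sncg and Cnr1 list, among the others. Median genes per cell of the Vip-led clusters were 5193, 5365, 6503 and 2480. The part of genes detected per cell in these shares was not tested.

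**Figure D2:**
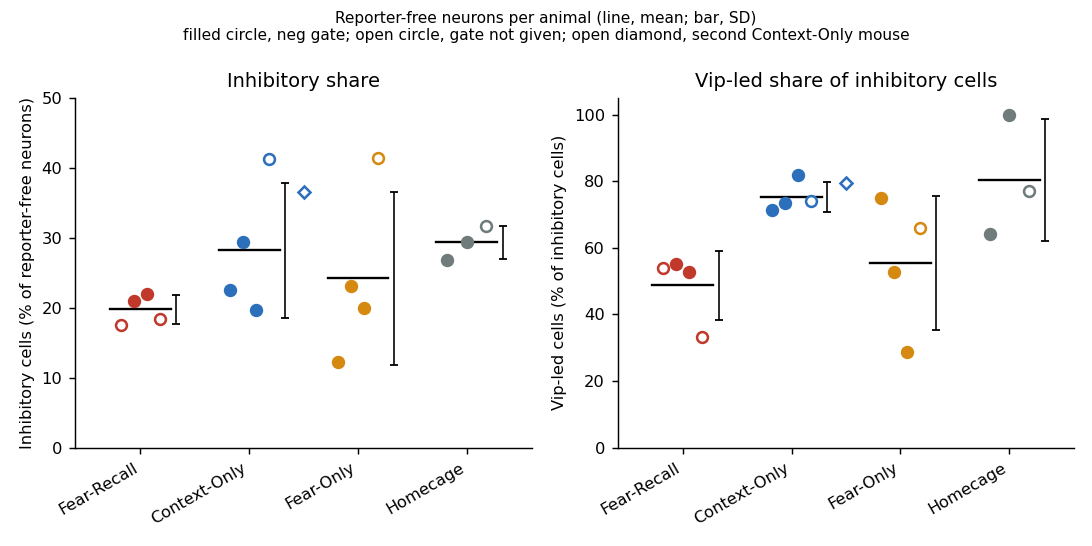
Inhibitory cells as a percentage of reporter-free neurons (left) and Vip-led cells as a percentage of inhibitory cells (right), 1 symbol per animal with the mean as a line and the SD as a bar. The inhibitory share of Fear-Recall, 17.6 to 21.95%, overlapped that of Context-Only, 19.6 to 41.3%, while the Vip-led share, 33.3 to 55.3% against 71.4 to 81.8%, did not.

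The level of Vip within the Vip-led cells overlapped between the conditions. Summed over those cells it was 11002, 14535, 17888 and 13746 CPM in Fear-Recall mice 1, 2, 3 and 5. In Context-Only mice 2, 3, 4 and 5 it was 21613, 31065, 16897 and 21416. By this sum, in which cells with more reads weigh more, Fear-Recall mouse 3 lay above Context-Only mouse 4 and the other 3 Fear-Recall mice lay below each Context-Only mouse. The median cell gave another order, at 22133, 138.1, 19615 and 48.95 CPM in Fear-Recall mice 1, 2, 3 and 5 and at 7654, 33894, 5414 and 24695 CPM in Context-Only mice 2, 3, 4 and 5. By the median cell, Fear-Recall mice 1 and 3 lay above Context-Only mice 2 and 4. Vip reads were present in 71.4%, 52.4%, 80% and 50% of the Vip-led cells of the Fear-Recall mice and in 60.0%, 81.8%, 66.7% and 86.96% of those of the Context-Only mice. In excitatory members, which should lack the peptide, between 0 and 6.35% of cells had any Vip read, and their summed level was at most 0.278 CPM except in Context-Only mouse 2, where 1 of 48 cells brought it to 160. Other inhibitory members had 0 in each Fear-Recall and Context-Only animal. With each cell thinned to 100000 reads, a measure of library quality, the median of genes per cell was 4736 to 6758 in the Fear-Recall and 4165 to 6611 in the Context-Only mice, and its part in these levels was not tested.

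Inhibitory members were then compared alone, with sums of 12 to 37 cells in Fear-Recall and 10 to 31 in Context-Only animals. Of 15253 genes tested, 0 passed by edgeR (0% called; smallest adjusted p 0.749), and 989 had an unadjusted p under 0.05, 587 higher and 402 lower. DESeq2 called 54 (0.354%), 40 higher and 14 lower, of which 8 reached a mean log2 CPM of 5. All Fear-Recall animals were above all Context-Only animals for 208 genes (1.36%) and below them for 1.1% of those tested. Vip was at 5513, 7718, 6398 and 3411 CPM in Fear-Recall and at 17249, 21567, 13341 and 16350 CPM in Context-Only mice, or -1.57 as a log2 fold change (SE 0.41, adjusted p = 0.749 by edgeR and 0.0497 by DESeq2). The groups did not overlap, and the second mouse was at 16271 CPM. In the other conditions the neg-gate animals with enough cells stood at 4686 (Fear-Only mouse 3) and 7443 CPM (Homecage mouse 2), and those of number 5 at 17417 (Fear-Only) and 21939 CPM (Homecage).

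Aldoc, the brain form of the glycolytic enzyme aldolase, had the smallest p of the inhibitory comparison. It was at 102, 223, 144.2 and 91.3 CPM in Fear-Recall and at 565, 427, 366 and 405 CPM in Context-Only mice. The groups were far from overlapping, and the log2 fold change was -1.65 (SE 0.31, adjusted p = 0.749 by edgeR, 0.467 to 0.9999 over the other edgeR fits and 0.000387 by DESeq2). Aldoc is also a marker of astrocytes, and that list's summed level was 128 to 265.4 CPM in Fear-Recall and 433 to 603 CPM in Context-Only inhibitory members. The astrocyte markers Aqp4 and Gfap were at 0 in these sums in all 8 animals, and Gja1 was at 0 in all but 1 Fear-Recall animal, at 0.0429 CPM. Of the other markers, Apoe was found in all 8 animals, at 0.309 to 136.3 CPM in Fear-Recall and 6.62 to 68.5 CPM in Context-Only. Slc1a3, at 0 to 27.02 against 2.03 to 8.01 CPM, and Fgfr3, at 0 to 24.3 against 9.67 to 49.2 CPM, were at 0 in 1 Fear-Recall animal each, and Aldh1l1, Mlc1 and Slc7a10 were at or below 19.2 CPM. Without Aldoc the list summed to 25.3 to 163.3 CPM in Fear-Recall and 37.7 to 135 in Context-Only. The part of other cells' RNA in the level of Aldoc was not tested.

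Beside Vip and Aldoc, the other 4 lower genes named by the rule did not overlap between the conditions either. A choice by smallest p favours such separation, which 1.1% of all genes tested showed on the lower side. The inhibitory sums also differed in makeup, with a Vip-led share of 33.3 to 55.3% in Fear-Recall and 71.4 to 81.8% in Context-Only mice. Rgs12 was among the leading genes of a cluster that Vip also led. The part of this makeup in the levels of these genes was not tested. Fxyd6, a regulator of the sodium pump, was at 1189, 1328, 945 and 1035 CPM against 2684, 2331, 2630 and 1818 (log2 fold change -1.07, SE 0.24; adjusted p = 0.749 by edgeR and 0.0242 by DESeq2). Nr2f1, the nuclear receptor COUP-TFI, was at 40.4 ± 7.52 against 108.1 ± 20.9 CPM. Rgs12 was at 180.9 ± 40.5 against 478 ± 254 CPM, and Rit1, a small GTPase of the Ras family, at 51.4 ± 10.9 against 123.9 ± 35.5 (SD, n = 4 each). The second Context-Only mouse lay with Context-Only for Fxyd6, at 2855 CPM, and among the Fear-Recall values for Rit1, at 52.9 CPM.

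On the higher side, the 6 genes named by the rule had groups that did not overlap. Their choice by smallest p favours this, and 1.36% of all genes tested lay so. Nxph1 was among the leading genes of a cluster with Sst and, together with Cox6a2, of a cluster with Pthlh. The part of the makeup of the inhibitory sums in the levels of these genes was not tested. Nxph1, a secreted ligand of neurexins, was at 234, 297.5, 357 and 363 CPM in Fear-Recall and at 76.8, 165, 138.3 and 140 CPM in Context-Only mice (log2 fold change 1.27, SE 0.38, adjusted p = 0.749). Satb1, a chromatin organiser of Sst and Pvalb interneurons, was at 102 ± 27.4 against 37.4 ± 17.3 CPM, and Cox6a2, a cytochrome oxidase subunit found in Pvalb interneurons, at 81.8 ± 20.7 against 27.7 ± 11.8. For Cox6a2 the second Context-Only mouse, at 85.1 CPM, lay among the Fear-Recall values. Osbpl8, a lipid-transfer protein of membrane contact sites, was at 140 ± 37.6 against 42.4 ± 12.02 CPM, Vps11, a vesicle-tethering subunit, at 61.3 ± 8.79 against 20.1 ± 6.10, and Unc5d, of the netrin receptor family, at 47.8 ± 36.6 against 9.89 ± 3.93 (SD, n = 4 each). DESeq2 called Osbpl8 (adjusted p = 0.0404), Vps11 (0.0189), Unc5d (0.0281) and Cox6a2 (0.0497) but not Nxph1 (0.124) or Satb1 (0.0607). Against Fear-Only and Homecage, Fear-Recall had log2 fold changes of 0.22 and 0.30 for Osbpl8 and 0.30 and 0.13 for Unc5d. They were 0.52 and -0.22 for Satb1, 0.15 and 1.49 for Vps11, 0.98 and 0.21 for Cox6a2 and 0.69 and 1.55 for Nxph1.

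**Figure D3:**
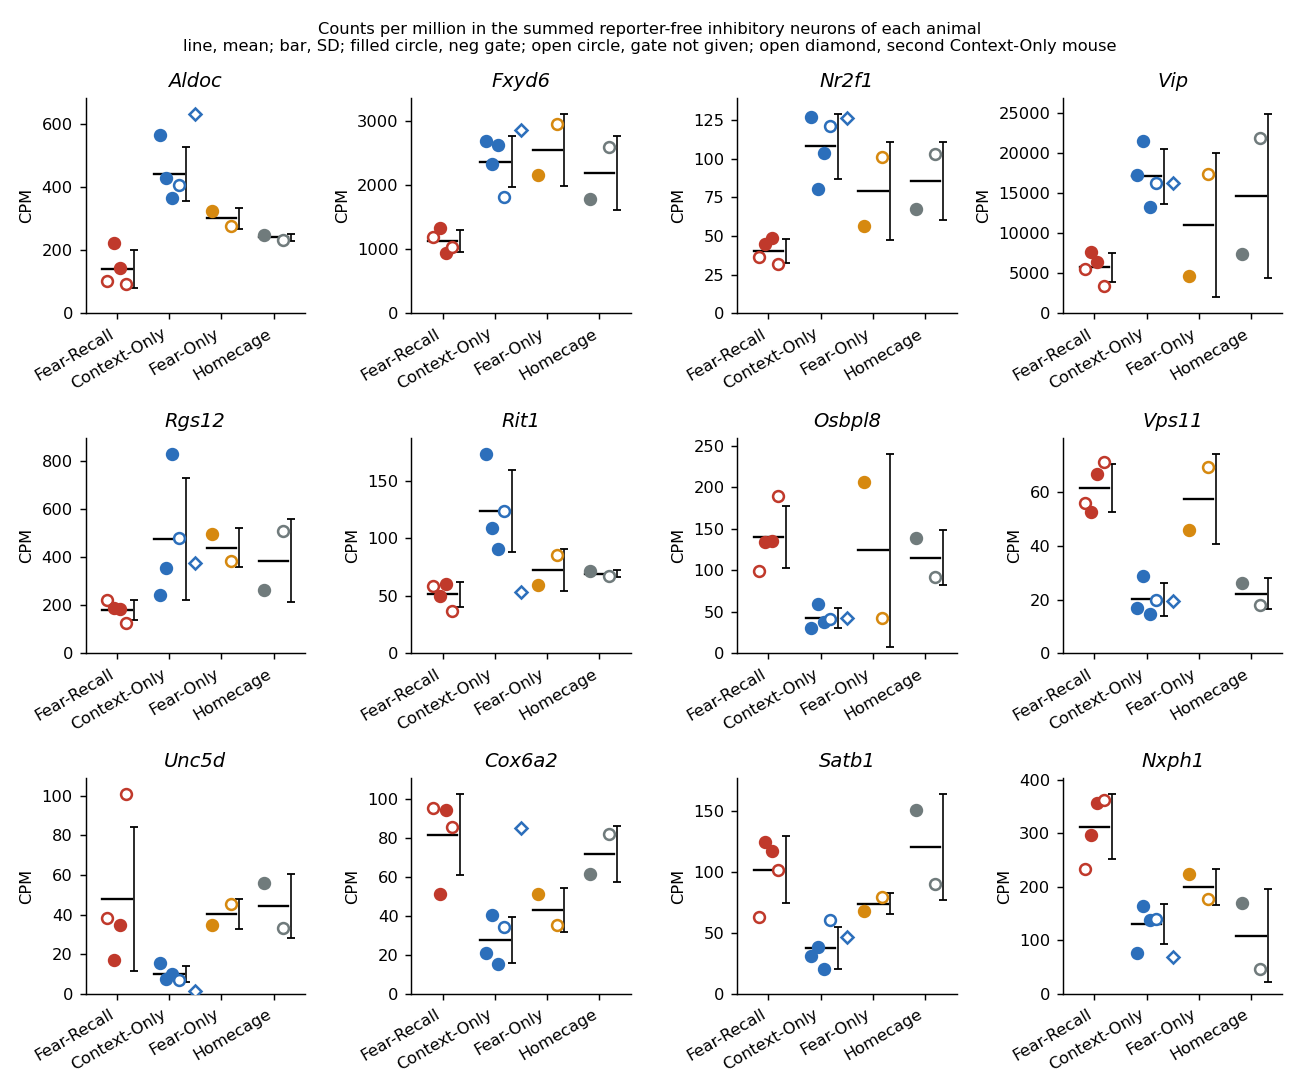
CPM (linear axis) of 12 genes in the summed inhibitory reporter-free neurons of each animal, with the mean as a line and the SD as a bar. The Fear-Recall values of Aldoc, 91.3 to 223 CPM, lay below the Context-Only values of 366 to 565 CPM.

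The peptides and proteins that name the other interneuron classes overlapped between the conditions. These genes were chosen after their values were seen. Sst was at 1188, 477, 1284 and 3324 CPM in the inhibitory members of Fear-Recall mice and at 821, 537, 0 and 642 CPM in Context-Only mice. Pvalb was at 64.9 ± 85.95 against 29.8 ± 29.1 CPM, and neuropeptide Y (Npy) at 1184 ± 857 against 996 ± 899 (SD, n = 4 each). Without Fear-Recall mouse 5 the log2 fold change of Pvalb went from 1.14 to -0.41 and that of Npy from 0.24 to -0.37, and without Context-Only mouse 4 Npy was at -0.061. Lamp5, a marker of neurogliaform cells, was at 493 ± 540 against 183.3 ± 56.8 CPM, where Fear-Recall mouse 5 alone was at 1293. Groups overlapped for all 4 genes. Of the 7 genes on the Sst list, 5 were above 0 and 2 below, with 0 passing and a median log2 fold change of 1.39. Its genes without overlap were Nos1, the neuronal nitric oxide synthase, at 58.9 ± 28.6 against 22.6 ± 8.69 CPM, and, in the other direction, Elfn1, a synaptic adhesion protein, at 28.4 ± 9.68 against 68.6 ± 22.2. Over all genes tested, 1.36% lay without overlap on the higher and 1.1% on the lower side. Of the 6 genes on the Pvalb list, 4 were above 0, 0 passed, the median was 0.72 and Cox6a2 alone had no overlap. Of the 6 genes on the Ndnf and Lamp5 list, 6 were above 0, 0 passed and the median was 0.77, with overlap in each. The list of Sncg and Cnr1 interneurons leaned the other way, with 4 of 5 genes below 0, 0 passing, a median of -0.61 and overlap in each, and it summed to 539 to 3068 CPM in Fear-Recall and 2134 to 4780 CPM in Context-Only. The Vip list in the same cells, Vip included, had 6 of 7 genes below 0, 0 passing and a median of -0.71. Penk, the enkephalin precursor, was at 639, 1429, 1359 and 1325 CPM against 1831, 1773, 3456 and 1606, also without overlap, although the second Context-Only mouse was at 1489.

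Excitatory members, with 53 to 139 cells per Fear-Recall and 36 to 48 per Context-Only animal, were compared in the same way. Of 17540 genes tested, 0 passed by edgeR (0% called) and 552 had an unadjusted p under 0.05, 347 of them higher. DESeq2 called 47 genes (0.268%), 43 higher and 4 lower, and 0 of them reached a mean log2 CPM of 5. All Fear-Recall animals were above all Context-Only animals for 255 genes (1.45%) and below them for 0.764% of those tested. Lypla2, an enzyme that removes palmitate from proteins, was at 96.3, 58.9, 76.2 and 53.9 CPM in Fear-Recall and at 20.5, 52.9, 38.9 and 21.5 CPM in Context-Only mice (log2 fold change 1.09, SE 0.35, adjusted p = 0.9999). The gap between the groups of Lypla2 was narrow, from 52.9 to 53.9 CPM.

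None of the other excitatory genes of smallest p passed the test either, and their choice by smallest p favours groups without overlap. Hnrnpll, a splicing regulator, was at 54.6 ± 15.3 against 28.6 ± 8.39 CPM, Pex3 at 42.9 ± 4.19 against 26.99 ± 6.93 and Dcun1d4 at 64.9 ± 35.2 against 30.1 ± 9.76 (SD, n = 4 each), without overlap. Ly6e, at 199.05 ± 76.5 against 129 ± 18.3 CPM, and Ostm1, a partner of a lysosomal chloride transporter, at 69.7 ± 31.1 against 34.8 ± 10.8, overlapped. On the lower side, Pop4, another RNase P subunit, was at 40.7 ± 4.30 against 73.6 ± 31.9 CPM and Bad, a pro-apoptotic member of the Bcl2 family, at 52.5 ± 6.26 against 91.9 ± 25.3, both without overlap, although the second Context-Only mouse was at 49.9 CPM for Bad. Groups overlapped for Mrm3, a mitochondrial rRNA methyltransferase, at 30.1 ± 5.83 against 55.1 ± 16.8 CPM, and for Tnnc1, a troponin C, at 26.7 ± 10.5 against 82.5 ± 52.7. They also overlapped for Creld2, an endoplasmic reticulum stress gene, at 34.2 ± 10.1 against 63.8 ± 24.9, and for Crebrf, at 31.2 ± 2.36 against 54.1 ± 22.8.

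The immediate early genes, apart from 1 near the floor, did not separate the conditions in reporter-free neurons. All 30 genes of the list were tested, 0 passed, 18 were above 0 and 12 below, and the median log2 fold change was 0.08 beside -0.01 for all genes tested, and without Context-Only mouse 2 it was -0.003. Fos was at 85.7, 422, 233 and 235.1 CPM in Fear-Recall and at 228, 304, 179.2 and 235.2 CPM in Context-Only mice. Its log2 fold change was 0.04, with an unadjusted 95% interval of -0.86 to 0.94 for this gene alone, from 4 animals each. This interval is no limit of detection over all genes, where Vip at -2.08 did not pass the edgeR test. Arc, whose protein acts at synapses, was at 85.1 CPM in Fear-Recall mouse 1 and at 343, 309 and 340 CPM in the other 3, against 184.5, 173.1, 159.4 and 239.03. Its log2 fold change was 0.51 (SE 0.38, adjusted p = 0.9999), and 0.89 within the neg gate. Egr1 was at 439 ± 180.8 against 498 ± 197.5 CPM, and Npas4, an activity-induced transcription factor of neurons, at 24.02 ± 11.03 against 26.0 ± 6.39 (SD, n = 4 each). The sign of Fos, Egr1 and Npas4 turned under several alternatives. These 4 genes were chosen after their values were seen. By the rule of smallest p, Nr4a3, an orphan nuclear receptor, was at 16.5 ± 5.98 against 31.9 ± 8.23 CPM, and Maff, a small Maf protein, stayed at or below 0.266 CPM in all 8 animals. At this level, near the floor, Maff was higher in Fear-Recall without overlap (log2 fold change 4.04, SE 2.21), as were 1.36% of all genes tested.

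Of the 16 activity-regulated secreted and late response genes, 0 passed, 5 were above 0 and 11 below, with a median of -0.28. Penk was at 96.0, 336, 293.4 and 299.98 CPM in Fear-Recall and at 487, 523, 772 and 621 CPM in Context-Only mice. The groups of Penk did not overlap (log2 fold change -1.22, SE 0.41, adjusted p = 0.9999). The growth factor Igf1 was at 43.4 ± 25.7 against 107 ± 51.1 CPM (SD, n = 4 each) with overlap. Of 17 neuropeptide genes tested, of 18 on the list, 0 passed and 11 were below 0, with a median of -0.58, and Vip and Penk had the smallest p there as well. That median was -0.25 without Context-Only mouse 2 and -0.30 without Context-Only mouse 5. In the CREB family list, 0 of 12 genes passed, 7 were below 0 and the median was -0.16 (0.17 without Context-Only mouse 5), with Crem, a cyclic AMP-responsive modulator, at 43.0 ± 15.04 against 66.2 ± 18.6 CPM and Atf2 at 79.8 ± 25.4 against 60.1 ± 15.4.

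Genes of vesicles, receptors and channels stayed near the median of all genes. Of 36 vesicle fusion genes 0 passed, 22 were above 0 and the median was 0.10, or 0.01 without Context-Only mouse 2. Cplx2, a complexin that clamps release, was at 170 ± 42.1 against 259 ± 35.4 CPM without overlap, and Doc2a, a calcium sensor, at 36.5 ± 6.49 against 23.3 ± 14.2 (SD, n = 4 each). Of 27 Rab GTPases 0 passed and the median was 0.02; Rab3d was at 7.54 ± 1.09 against 2.37 ± 1.55 CPM without overlap and Rab1b at 147.6 ± 49.3 against 111 ± 16.6. Of 28 genes for neurexins, neuroligins and other synaptic adhesion proteins 0 passed, 20 were above 0 and the median was 0.12, led by Nlgn1, with Nlgn3 at 126 ± 31.2 against 87.4 ± 33.3 CPM.

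The medians of the receptor and channel lists also lay near 0. Of 38 glutamate receptor and scaffold genes 0 passed and 19 lay on each side of 0; the scaffold Dlg3 was at 12.3 ± 3.93 against 28.3 ± 19.2 CPM and Dlg1 at 32.4 ± 7.46 against 22.3 ± 2.28 (SD, n = 4 each). Of 20 GABA genes 0 passed and 12 were above 0, with a median of 0.04. The GABA-A receptor subunit Gabra2 was at 141.98 ± 29.8 against 100.1 ± 16.006 CPM without overlap, and Gabra5 at 141.5 ± 33.6 against 77.3 ± 34.4. Of 32 potassium channel genes 0 passed and the median was -0.10, with Kcnn2, a calcium-activated channel, at 35.3 ± 5.74 against 18.02 ± 10.3 CPM and Kcnc4 at 71.9 ± 11.8 against 56.7 ± 6.94. Of 26 sodium, calcium and HCN channel genes tested 0 passed and the median was -0.05. The calcium channel subunit Cacna2d3 was at 28.3 ± 2.43 against 53.4 ± 19.5 CPM without overlap, and Cacna2d2 at 1.10 ± 0.63 against 2.85 ± 1.43.

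Several housekeeping lists leaned to the Context-Only side, and for 3 of them the direction turned without 1 animal, Context-Only mouse 2. Of 75 nuclear genes of oxidative phosphorylation 0 passed and 71 were below 0, with a median of -0.44. Of 80 cytosolic ribosomal protein genes 0 passed and 76 were below 0, with a median of -0.22. The oxidative phosphorylation genes summed to 57560 CPM in Context-Only mouse 2 and to 26351, 28064 and 28929 in the other Context-Only mice, beside 25586, 28274, 28168 and 28990 in Fear-Recall. Without Context-Only mouse 2 the medians were 0.07 and 0.19, with 26 of 75 and 11 of 80 genes below 0. The mitochondrion-encoded list, 13 genes tested with 0 passing, likewise went from -0.08 to 0.27. The proteasome list, with 0 of 32 passing and 26 below 0, kept its sign, from -0.33 to -0.14. Ndufb8 and Ndufa12, subunits of complex I, were at 378 ± 55.7 against 652 ± 529 CPM and 220.8 ± 31.999 against 366 ± 283, and Psmd4, a ubiquitin receptor of the proteasome, at 347 ± 99.3 against 499 ± 119.2 (SD, n = 4 each). Psma4, of the proteasome core, was at 181.5 ± 49.3 against 258.4 ± 76.2 CPM, and the ribosomal proteins Rpl18 and Rps9 at 138.4 ± 7.99 against 212 ± 99.4 and 254 ± 29.3 against 369 ± 208. The mitochondrion-encoded complex I genes mt-Nd6 and mt-Nd1 were at 107 ± 14.8 against 95.1 ± 33.5 CPM and 2095 ± 509 against 2305 ± 814, and the sign of mt-Nd1 turned without Context-Only mouse 2. The groups of these 8 genes overlapped.

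**Figure D4:**
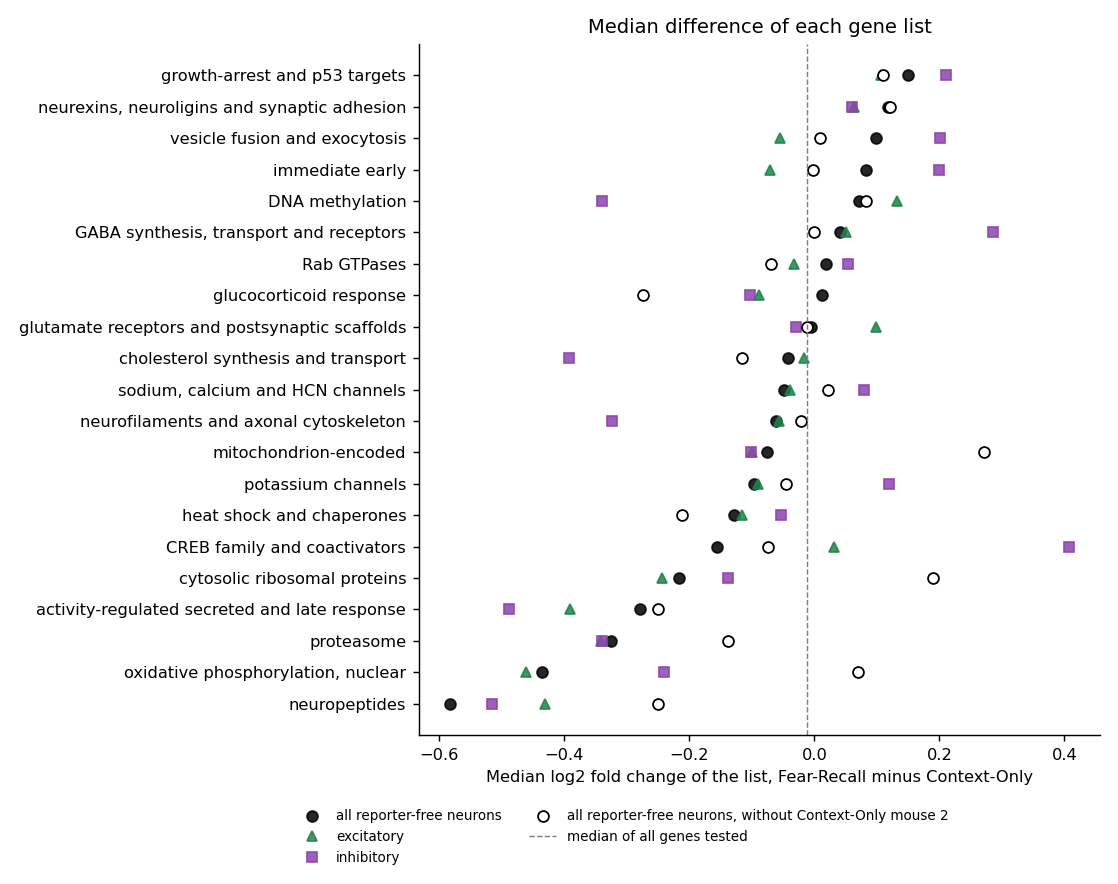
Median log2 fold change, Fear-Recall minus Context-Only, of each gene list in all, excitatory and inhibitory reporter-free neurons, with the median of all genes tested as a dashed line. Open circles leave out Context-Only mouse 2, which moves the oxidative phosphorylation list from -0.44 to 0.07.

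The remaining lists held 0 genes past the test. The 27 heat shock and chaperone genes had a median of -0.13, with 20 below 0, and the inducible Dnajb1 was at 216.004 ± 73.7 against 292.8 ± 78.9 CPM, while Hspa1b stayed at or below 1.34 CPM in all 8 animals. Without Context-Only mouse 5 the median of this list was 0.01. The median was 0.07 for 12 DNA methylation genes tested, where the repair glycosylase Mbd4 was at 15.9 ± 5.20 against 7.12 ± 3.05 CPM and the demethylase Tet2 at 31.4 ± 10.5 against 20.3 ± 3.41 (SD, n = 4 each). It was 0.15 for 12 growth-arrest and p53 target genes, with Gadd45b at 39.3 ± 19.5 against 60.6 ± 31.1 CPM and Ccng1 at 31.8 ± 13.9 against 22.3 ± 8.02, and 0.01 for 11 glucocorticoid response genes (-0.27 without Context-Only mouse 2), with Nr3c2, the mineralocorticoid receptor, at 8.86 ± 1.87 against 4.59 ± 1.39 and Hsd11b1, which regenerates active glucocorticoid, at 2.81 ± 2.22 against 12.1 ± 9.18. For 24 cholesterol genes it was -0.04, with the isomerase Ebp at 43.6 ± 8.08 against 71.9 ± 32.0 CPM and the kinase Pmvk at 76.4 ± 20.7 against 117.4 ± 36.2. For 18 neurofilament and axonal cytoskeleton genes it was -0.06, with the heavy neurofilament Nefh at 7.65 ± 2.79 against 13.1 ± 6.31 CPM and the tubulin-binding Stmn3 at 1693 ± 72.6 against 2222 ± 975.

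Reporter-read neurons of the pos gate gave the comparison within animals, over the neg-gate mice that had both kinds of cells: 2 Fear-Recall, 3 Context-Only, 2 Fear-Only and 1 Homecage animal. In Fear-Recall mice 2 and 3, Vip was at 1697 and 1283 CPM in reporter-free and at 5964 and 6350 CPM in reporter-read neurons. In Context-Only mice 2, 3 and 4, it was at 3550, 5902 and 2831 CPM in reporter-free and at 4549, 10190 and 4913 CPM in reporter-read neurons. The reporter-free values of Fear-Recall lay below those of Context-Only, and the reporter-read values lay within their range. The means of these animals were 1490 against 4094 CPM in reporter-free and 6157 against 6551 CPM in reporter-read neurons. Vip of Fear-Only mice 2 and 3 was at 1943 and 1011 CPM in reporter-free and at 10104 and 9930 CPM in reporter-read neurons. Homecage mouse 2 had 1785 CPM in reporter-free and 3722 CPM in reporter-read neurons. A lower level of Vip in reporter-free than in reporter-read neurons was thus not particular to Fear-Recall. In 1 fit over both kinds of cells, with the animal as a block, the log2 difference of Fear-Recall minus Context-Only was higher, here less negative, by 1.41 (SE 0.31) in reporter-read than in reporter-free neurons, with an adjusted p of 1 for this interaction by edgeR.

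**Figure D5:**
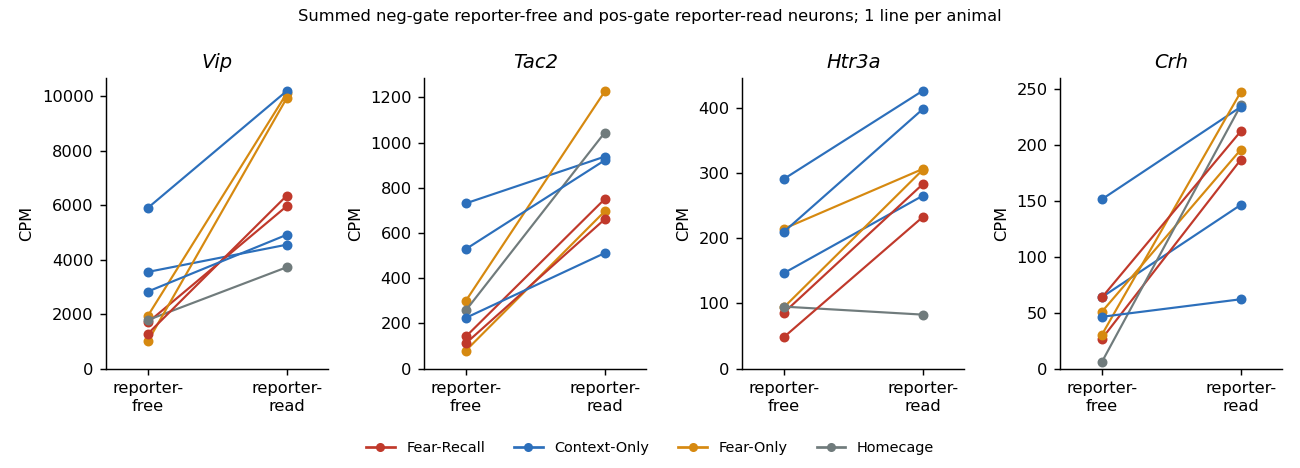
CPM (linear axis) of Vip, Tac2, Htr3a and Crh in the reporter-free (left) and reporter-read (right) neurons of 8 animals, 1 line per animal. Vip of Fear-Recall goes from 1283 and 1697 CPM to 6350 and 5964 CPM.

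The difference of effects did not pass for any gene: 0 of 21377 genes were called in the interaction (0%), while 396 had an unadjusted p under 0.05, 172 of them lower. A positive value means that Fear-Recall minus Context-Only was higher, or less negative, in reporter-read than in reporter-free neurons. The genes of smallest p with a positive log2 value were Tac2 (1.70, SE 0.37), Vip, Epha7, an ephrin receptor (0.93, SE 0.25), Dlx6os1, an RNA antisense to an interneuron transcription factor (1.14, SE 0.31), Htr3a (1.22, SE 0.36) and Crh (1.52, SE 0.45). The counting is not stated to use strand, so reads of Dlx6os1 and of the gene it runs against cannot be told apart. On the lower side were Lmo1 (-1.06, SE 0.31), Cstf1 (-1.14, SE 0.37), Crym (-0.58, SE 0.20), Mpped2 (-0.72, SE 0.25), Gnb4 (-0.87, SE 0.31) and Ly6e (-0.53, SE 0.19). Ly6e was at 133.8 and 134.01 CPM in the Fear-Recall mice and 95.4 to 109.002 CPM in the Context-Only mice among reporter-free neurons, and at 121.2 to 131.9 against 131.3 to 143.9 CPM among reporter-read neurons.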

How the data were processed

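Single cells of mouse medial prefrontal cortex were profiled with Smart-seq2, per the labels' protocols. The authors deposited raw read counts per gene and cell for 23354 genes and the reporter transgene. Bowtie 0.12.2 and the builds mm8 and mm10 appear, without a role, in the submitters' processing notes. How reads were counted is not given in the sources. Smart-seq2 has no molecular identifiers, so reads are not independent molecules. Intervals of cell shares cover counting error only, while the interval of the Fos log2 fold change comes from the edgeR fit over animal sums.

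Cells were clustered with scanpy 1.11.5 (2000 variable genes, 30 components, 15 neighbours, Leiden resolution 1.0; 22 clusters) and classed as excitatory or inhibitory by marker lists, and a call per cell gave the same class for 98.6% of members. No doublet caller was run. Counts were summed per animal, with at least 10 cells, and tested with edgeR 4.0.16 (R 4.3.3; quasi-likelihood, TMM, filterByExpr at 10 counts per sum and 15 in total, Benjamini-Hochberg at 0.05 over all genes tested) over the sums of all 4 conditions. DESeq2 1.42.0 and limma 3.58.1 were alternatives. CPM values are counts scaled to a common library total. P-values measure the spread between animals. The interaction fit had the animal as a block. The inhibitory share was tested by an exact permutation over animals with scipy 1.17.1. The scripts were tested on simulated data.

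Named genes were the 6 of smallest p per direction among genes reaching a mean log2 CPM of 5, since 0 genes passed, and the 2 of smallest p in each pathway list. Genes said to be chosen after their values were seen, and Vip-list genes, were added. The members and lists were chosen with earlier results of these data known. The mouse numbers were taken from the labels. Same-numbered Fear-Recall and Context-Only animals deviated together, with correlations over 5154 genes of 0.314, 0.418 and 0.508 for mice 2, 3 and 5. Pairs of different numbers had correlations from -0.539 to 0.271. The number was therefore also fitted as a replicate block. Gene positions are from GENCODE vM21, which held 95.7% of the symbols.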

Additional observations from a re-analysis of the deposited data

Results flagged for a closer look

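In 6 of the 78 groups of 4 animals tested, the highest animal lay apart from the other 3 of its group by Dixon's criterion at the 95% level, which by its construction marks some groups by chance alone, about 5% of them. Of these, 3 concern Fear-Recall mouse 1, whose labels give no gate. Ly6e was at 273 CPM in its reporter-free neurons, beside 133.5 to 155 CPM in the other Fear-Recall mice. Within its excitatory members Ly6e was at 313 CPM, beside 149 to 175.9 CPM. Dcun1d4 was at 117.4 CPM in its excitatory members, beside 42.9 to 53.3 CPM.

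Mrm3 was at 38.8 CPM in the excitatory members of Fear-Recall mouse 5, beside 27.01 to 27.3 CPM in the others of its group. Fut9 was at 99.3 CPM in the reporter-free neurons of Context-Only mouse 5, beside 75.7 to 78.9 CPM. Pex3 was at 37.3 CPM in the excitatory members of Context-Only mouse 3, beside 22.5 to 24.3 CPM.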

How the results depend on the processing

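The number of genes called was 0 under each edgeR and limma alternative run for the 4 comparisons, leaving out each animal included, and DESeq2's Wald test called 65 genes in all, 47 in excitatory and 54 in inhibitory reporter-free neurons; the cause was not tested. DESeq2 gave no adjusted p for 406, 375 and 2635 genes. With the mouse number as a replicate block, 0 genes were called in each of the 3 comparisons and Vip had a log2 fold change of -1.98; the block changed no call. Genes named by the smallest p kept their sign under all 21 alternatives in all neurons, all 14 in each class and all 11 of the interaction, with lowest edgeR adjusted p of 0.906, 0.868, 0.467 and 1. The sign of some other genes turned. Maff was at -0.95 with the second Context-Only mouse. Fos was at -0.14 with thinned cells and -0.13 with limma-trend, Egr1 at 0.12 in the neg gate and 0.049 with the block, Npas4 at 0.056 with any reporter count and 0.089 with the block, and Calb2 at -1.78 with limma-trend. Leaving out 1 animal at a time moved mt-Nd1 between -0.30 and 0.13, Fos between -0.36 and 0.32, Egr1 between -0.42 and 0.12, Npas4 between -0.41 and 0.089 and Calb2 between -0.28 and 0.89. In inhibitory members it moved Pvalb between -0.41 and 2.01 and Npy between -0.37 and 1.11. The difference in inhibitory share kept its sign, from -11.4 to -4.12 points without 1 animal, -10.1 with the second Context-Only mouse, -7.38 with cells of 3000 or more genes and -10.6 with same-numbered mice as pairs. The number of animals limits these comparisons: the median SE of a log2 fold change at a mean log2 CPM of at least 5 was 0.32 in all, 0.33 in excitatory and 0.44 in inhibitory members.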
